A study of Sus scrofa with 12 samples.

Results

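The genes described here encode collagens, laminins and matrix glycoproteins, the structural and adhesive proteins that cells lay down around themselves. They were chosen by gene symbol: every pig gene named as a collagen chain or a laminin chain, and 20 further matrix genes chosen by name. Of 19681 gene identifiers in the tables, 13998 had a symbol, and 66 belonged to the set, made up of 36 collagen chains, 11 laminin chains and 19 of the 20 genes chosen by name. ELN, the gene for elastin, and chains such as COL4A1, COL6A2 and LAMA2 are not analysed here. The tables came from RNA sequencing of porcine cells in 4 groups with 3 biological replicates each, lettered A, B and C. AOC is a porcine endothelial cell line. IEC2, IEC4 and IEC12 are porcine induced pluripotent stem (iPS) cells taken 2, 4 and 12 days into endothelial induction. The induced cells were grown on Matrigel and received the GSK3 inhibitor CHIR99021 for the first 2 days, BMP4, FGF2 and VEGF up to day 4, and endothelial growth medium with VEGF after that. IEC12 was not sorted, and the study's flow cytometry found only a minority of CD31-positive cells on day 12. The AOC cells are an established line and received no induction, so cell origin and culture differ together with the group. Libraries of undifferentiated iPS cells and of sorted cells are not analysed here.

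Fibrillar collagens such as types I, III and V form the tensile fibres of connective tissue. Laminins, each a trimer of an alpha, a beta and a gamma chain, and collagen IV form the sheets of the basement membrane, which nidogens and the heparan sulphate proteoglycans perlecan and agrin connect. Endothelial cells rest on such a membrane, in which the alpha4 and alpha5 laminin chains are typical, and glycoproteins such as fibronectin, thrombospondin and SPARC regulate how cells attach to it.

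Values are FPKM (fragments per kilobase of transcript and mapped library size), a level scaled for gene length and library size. Levels and shares set side by side between genes are still rough, since estimates of single genes can fail. RPS18 and RPLP0, ribosomal protein genes chosen after their values were seen, were listed at 14.3 to 54.7 and 849 to 5735 FPKM. The FPKM summed over all genes to between 335976 and 457194 per library, and 8357 to 10467 genes reached an FPKM of 1. The number of reads is unknown, but steps of the low values put the depth of the libraries at 0.651 (IEC12 replicate A) to 1.2 times that of the median library. Low values need care, since POLR2A, a gene that every cell uses and that was chosen after its values were seen, was listed at only 0.0579 to 1.33 FPKM. In AOC the defining endothelial genes were high, with CDH5 (VE-cadherin) at 103 to 137 and PECAM1 (CD31) at 91.7 to 131 FPKM. CDH5 was listed at 0 in all 9 IEC libraries, and PECAM1 stayed at or below 0.554 FPKM. Summed over 10 endothelial markers found of 13 listed, the level was 295 to 420.3 FPKM in AOC, 5.53 to 9.28 at day 2 (IEC2), 4.62 to 5.57 at day 4 (IEC4) and 0.693 to 2.58 at day 12 (IEC12). VWF was not among those found. KDR was higher in IEC2 (2.42 to 3.99 FPKM) than in AOC (1.31 to 1.46). ENG was at 1.58 to 3.83 in IEC2 and IEC4 and 0.361 to 1.23 in AOC. In IEC12, KDR did not exceed 0.0374, and ENG was at 0.278, 0.653 and 2.02. CDH5, PECAM1 and the summed markers therefore went against the label of induced endothelial cells for IEC12, and the groups are called here by their names and days. The other marker lists were also summed. Mesenchymal and mural genes (11 found of 12 listed) gave 20.7 to 21.5 FPKM at day 2, 26.3 to 50.1 at day 4, 24.6 to 32.5 at day 12 and 6.36 to 14.4 in AOC. PRRX1 made up most of this sum in IEC2 and IEC12 (22.1 to 29.4 FPKM in IEC12), and ACTA2 in AOC (4.65 to 12.8). RGS5 was at 24.6 FPKM in IEC4 A, against 7.6 in B and 3.93 in C. A mean of at least 1 FPKM was reached by 2 of the 11 in each of IEC2, IEC12 and AOC, and by 4 in IEC4. PDGFRB did not exceed 0.445 FPKM, so the sum does not describe the list as a whole. Endoderm genes (4 of 8) gave no more than 3.16 FPKM in any library, and pluripotency genes (2 of 6) no more than 6.39.

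IEC4 replicate C stood apart from its 2 partners. Pearson's r of log2(FPKM + 1) across genes was 0.985 between A and B, 0.974 between A and C and 0.979 between B and C, a description over genes that are not independent. By the same measure IEC12 replicate A also stood apart. Its r was 0.982 with IEC12 B and 0.968 with IEC12 C, the lowest of any pair within a group, against 0.991 between IEC12 B and C. Among 35 matrix genes with a mean of at least 1 FPKM in IEC4, 28 were higher in C than in both A and B, and 9 were at least 3 times the mean of A and B. Over all 10246 genes at that level, 39.0% were higher in C than in both and 2.61% reached 3 times. Epithelial markers moved in the same way. Their summed FPKM over 7 of 8 genes was 118.8 to 152.7 in IEC2, 540.4 and 704.2 in IEC4 A and B, 1509 in IEC4 C, 42.3 to 87.2 in IEC12 and 3.03 to 5.08 in AOC. Of the 7, 6 had a mean of at least 1 FPKM in IEC4. CDH1 (E-cadherin) was at 7.51, 6.54 and 42.8 FPKM in IEC4 replicates A, B and C and at 0 in AOC, and KRT8, a simple epithelial keratin, at 300.4, 435 and 748. EPCAM was at only 0.166, 0.208 and 2.21 FPKM in the same IEC4 replicates. ESRP1 was at 4.83, 7.91 and 12.4 FPKM in them and at 8.83 to 11.3 in IEC2, so IEC4 A and B lay below IEC2. The part of epithelial cells in the matrix results was not tested, and in bulk samples fewer cells of a type and less RNA per cell cannot be told apart. Each log2 fold change given for a called difference of IEC4 is given with and without replicate C.

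The summed FPKM of the 66 genes was 483, 525 and 623 in the replicates of IEC2, 884, 910.4 and 1843 in IEC4, 279, 299.98 and 278 in IEC12 and 1202, 1266 and 1144 in AOC. IEC12 was the lowest group and all its libraries lay below every other library. The genes took 0.137 to 0.186% of the total FPKM at day 2, 0.253 to 0.486% at day 4, 0.0609 to 0.0728% at day 12 and 0.259 to 0.297% in AOC. SPARC alone made up 63.0 to 67.3% of the sum at day 2, 62.9 to 75.1% at day 4, 19.2 to 42.1% in IEC12 and 27.7 to 46.6% in AOC. Without SPARC, IEC12 overlapped the other stages, with 160.7 to 225.0 FPKM against 157.9 to 206.4 in IEC2 and 220.1, 264 and 684 in IEC4, while AOC held 650.6 to 827.6. A mean of at least 1 FPKM was reached by 19 of the genes in IEC2, 35 in IEC4, 18 in IEC12 and 21 in AOC. Of the 39 genes that reached it in some group, 22 were highest in IEC4, 10 in AOC, 4 in IEC12 and 3 in IEC2. The remaining 27 genes had no group mean of 1 FPKM, and 22 of them were under 1 FPKM in every library.

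**Figure D1:**
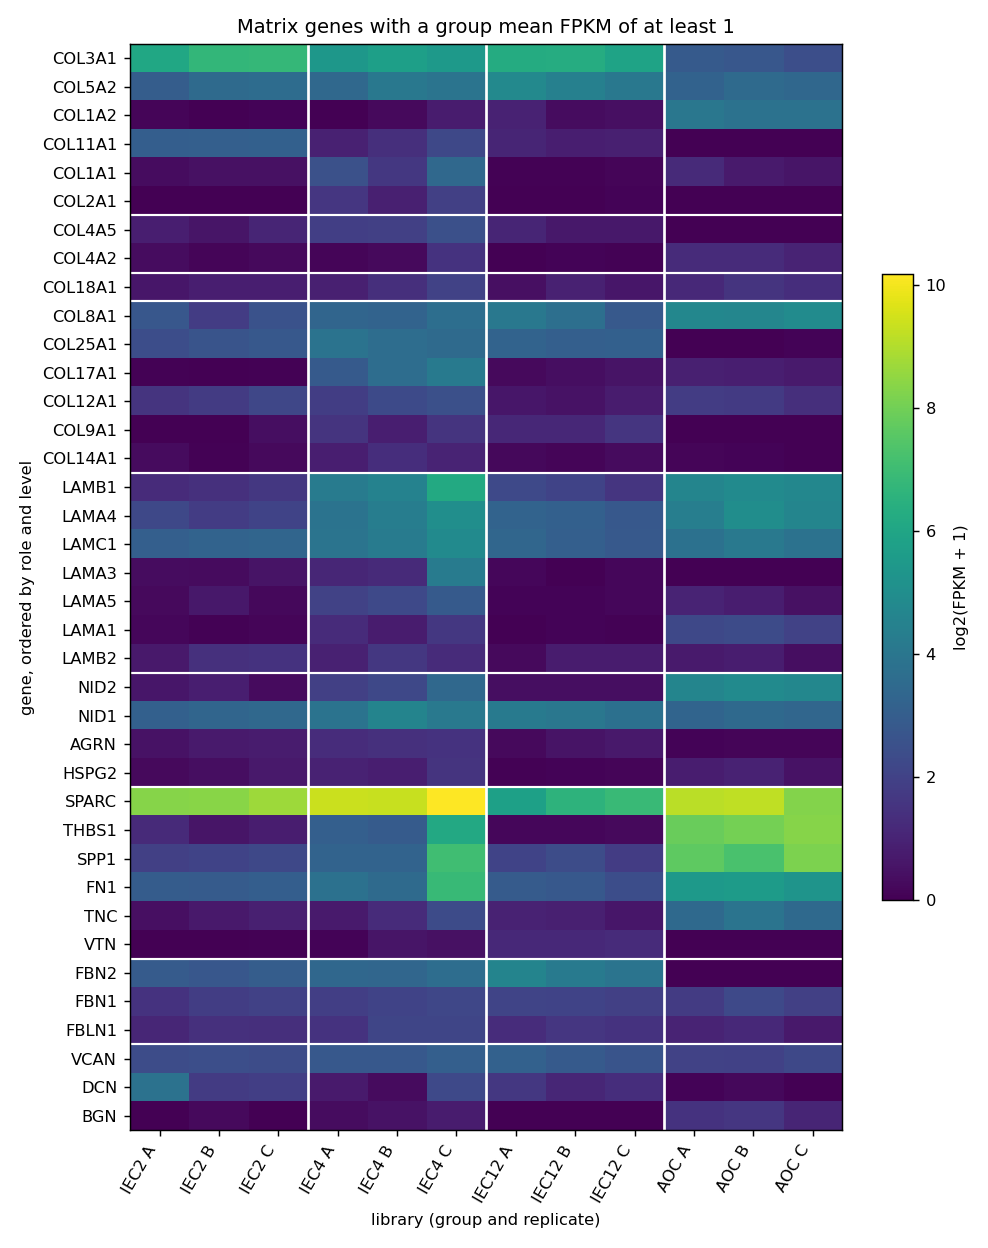
Levels, as log2(FPKM + 1), of 38 of the 39 matrix genes with a mean of at least 1 FPKM in some group (rows, ordered by role: fibrillar collagens, collagen IV, collagen XVIII, other collagens, laminins, linkers, adhesive glycoproteins, elastic fibre genes and proteoglycans) in the 12 libraries (columns). SPARC is the brightest row, and most laminin and linker rows are brighter in IEC4 than in IEC2 and IEC12.

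Differences were tested with limma on log2(FPKM + 1), and a gene was called when the Benjamini-Hochberg adjusted p was under 0.05 and the absolute log2 fold change was above 1. Only genes with at least 1 FPKM in at least 3 libraries were tested, which left 29 of the 66 genes for the IEC stages and 35 for AOC against IEC12. Of the 29, 7 passed this filter through 1 stage only, AGRN, COL17A1, COL1A1, LAMA3, LAMA5 and NID2 through IEC4 and VTN through IEC12, so that their difference from the other stages followed in part from the filter. The first question was what the cells changed between the end of the CHIR99021 step and day 4. From IEC2 to IEC4, matrix genes rose more often than they fell: 14 of 29 were higher, where 13.5% of all 10542 genes tested were, and 1 was lower, where 4.8% were. The 14 were LAMA4, LAMA5, LAMB1 and LAMC1 among the laminins, NID2, the glycoproteins THBS1, SPP1 and SPARC, and the collagen genes COL1A1, COL4A5, COL8A1, COL9A1, COL17A1 and COL25A1. COL11A1 fell. Among the 22 genes that did not pass through 1 stage only, 10 were higher and 1 lower. The median log2 fold change was 1.06 over the 29 and 0.20 over all genes tested, and rescaling by median of ratios moved the latter to -0.03. With IEC4 replicate C left out and the filter applied again to the remaining libraries, only 7 were higher and 2 lower, and 9 were higher without replicate A. With replicate C left out and the genes tested kept as before, a setting chosen after seeing the data, 11 were higher and 2 lower. Over all 10542 genes, 1344 were higher and 581 lower in that setting. COL8A1, LAMC1 and SPARC were then no longer called and DCN was called lower.

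From IEC4 to IEC12 the direction was the opposite: 14 of 29 matrix genes fell, where 16.4% of all genes did, and none rose, where 6.25% of all genes did. The 14 were LAMA3, LAMA4, LAMA5, LAMB1, LAMC1, NID2, THBS1, SPP1, FN1, SPARC, COL1A1, COL4A5, COL12A1 and COL17A1. In limma, 4 genes had a positive difference at an unadjusted p under 0.05 (COL3A1, COL5A2, FBN2 and VTN), but 0 of them exceeded the fold limit. The median log2 fold change was -0.89 over the 29 genes and -0.15 over all. Among the 22 genes that did not pass through 1 stage only, 9 fell. Without IEC4 replicate C, 7 fell with the filter applied again, and 9 without replicate A or without replicate B. With the genes tested kept as before, 12 of the 14 were still called without replicate C, and FN1 and LAMC1 were not. Over all 10542 genes, 1582 fell and 737 rose in that setting. This comparison shares the IEC4 libraries with the one before it, so an IEC4 value enters both, with opposite signs, and the lists are not independent.

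**Figure D2:**
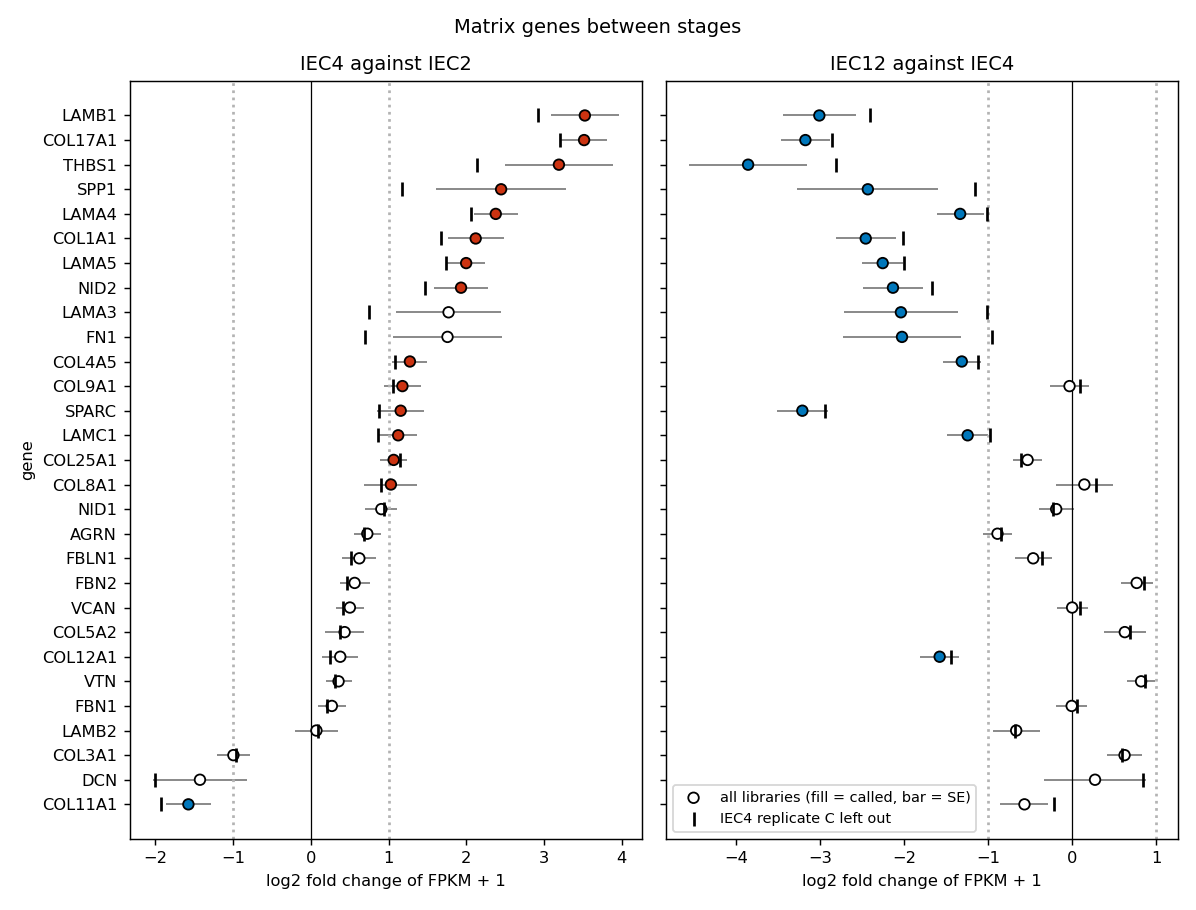
Log2 fold change of FPKM + 1, with its standard error as a bar, of the 29 tested matrix genes in IEC4 against IEC2 (left) and IEC12 against IEC4 (right). Filled points were called, dotted lines mark the fold limit of 1, and the black ticks give the value without IEC4 replicate C. The genes at the top of the left panel lie far to the left in the right panel, and the ticks of FN1, SPP1, LAMA3 and THBS1 lie about 1 log2 unit nearer to 0 than the points.

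The net difference between day 12 and day 2 was smaller. In IEC12 against IEC2, 6 of 29 genes were higher (COL5A2, COL8A1, COL9A1, FBN2, LAMA4 and VTN), where 11.1% of all genes were, and 3 were lower (COL11A1, COL12A1 and SPARC), where 10.3% were. The count of lower genes was thus near the share over all genes. VTN passed the filter through IEC12 only, and among the 22 genes that did not pass through 1 stage only, 5 were higher and 3 lower. The median log2 fold change was -0.04 over the 29 genes and 0.03 over all genes tested. Without IEC12 replicate A only 2 were higher. The remaining 20 did not pass the call, which does not show that they were at equal levels.

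The last comparison asked how far the day 12 cells were from an established endothelial line. In AOC against IEC12, 14 of 35 matrix genes were higher, where 13.9% of all 11053 genes tested were, and 6 were lower, where 18.6% were. Higher in AOC were the laminin genes LAMA1, LAMA4 and LAMB1, NID2, COL4A2, the collagen genes COL1A2, COL8A1 and COL12A1, BGN, and the glycoprotein genes FN1, SPARC, SPP1, THBS1 and TNC. Lower in AOC were COL3A1, COL5A2, COL9A1, COL25A1, FBN2 and VTN. The median log2 fold change was 0.64 over the 35 genes and -0.21 over all. Of the 35, 6 passed the filter through 1 group only, among them BGN and COL1A2 through AOC and VTN through IEC12. Among the other 29, 12 were higher and 5 lower. BGN, COL18A1, COL1A2, COL4A2, LAMA1 and TNC passed only with the AOC libraries counted, so their difference from IEC12 followed in part from the filter. AOC and IEC12 share no donor, clone or medium that the labels name, so the cell source and the culture cannot be told apart from the cell type.

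**Figure D3:**
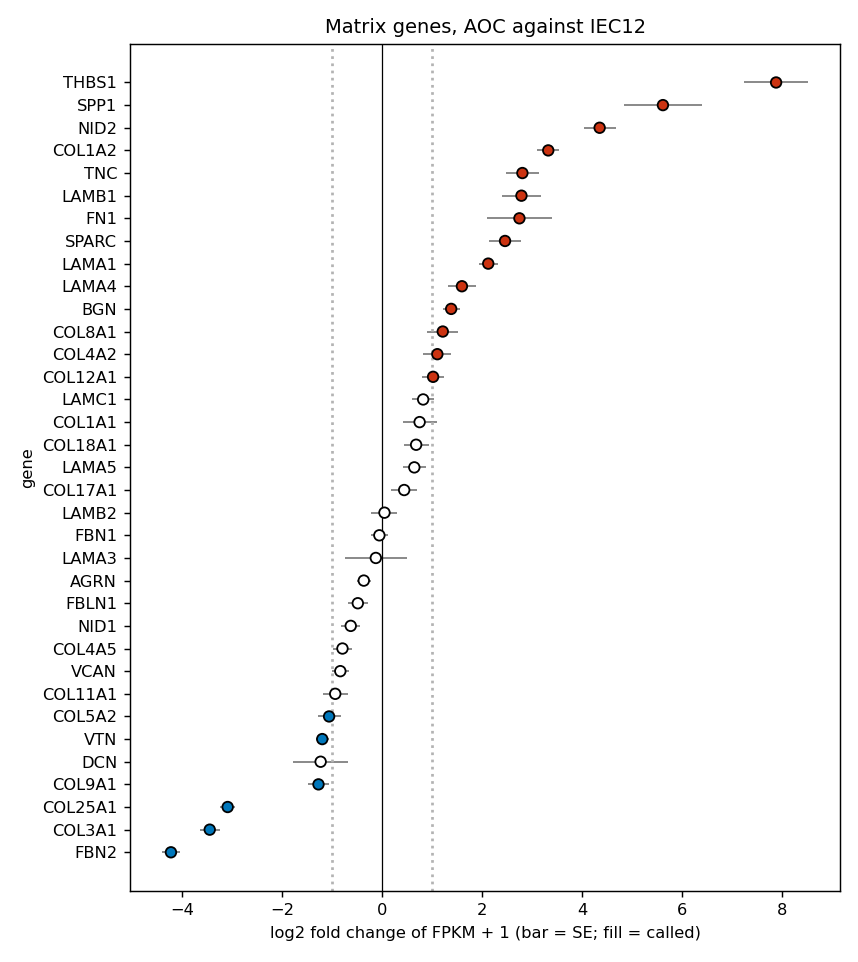
Log2 fold change of FPKM + 1 between AOC and IEC12, with its standard error as a bar, for the 35 matrix genes tested. Filled points were called and dotted lines mark the fold limit of 1. THBS1 has the largest positive value, 7.88, and FBN2 the most negative, -4.23.

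Of the 11 laminin genes 6 were tested between stages, of which 4 rose from IEC2 to IEC4, where 13.5% of all genes tested did, and 5 fell from IEC4 to IEC12, where 16.4% did. Without IEC4 replicate C these counts were 3 and 4 among the genes tested before, where 1344 of all 10542 genes rose and 1582 fell. They were 2 and 2 with the filter applied again. LAMB1 (Sscrofa11.1, chromosome 9, 107670120 to 107747242), which encodes the beta1 chain found in most laminins, was at 1.41, 1.69 and 2.13 FPKM in IEC2 replicates A, B and C, 17.6, 22.1 and 71 in IEC4, 3.79, 3.12 and 1.99 in IEC12 and 23.9, 28.3 and 25.4 in AOC. All 3 IEC4 libraries lay above all IEC2 and IEC12 libraries, and replicate C was the highest of the 12. LAMB1 rose from IEC2 to IEC4 (log2 fold change 3.52, SE 0.44, adjusted p = 0.000274), with a value of 2.92 without replicate C. It fell again to IEC12 (log2 fold change -3.01, SE 0.44, adjusted p = 0.000696), or by 2.41 on the log2 scale without replicate C. AOC was 8.74-fold above IEC12 in mean FPKM (log2 fold change 2.79, SE 0.4, adjusted p = 8.52e-05). LAMA4 (chromosome 1, 78071990 to 78224564) encodes the alpha4 chain, the alpha chain typical of endothelial basement membranes. It was at 3.59, 2.53 and 3.14 FPKM in IEC2, 13.6, 18.7 and 31.9 in IEC4, 8.58, 7.77 and 5.98 in IEC12 and 19.3, 31 and 23.9 in AOC. The 4 groups were ordered IEC2, IEC12, IEC4 and AOC by mean. IEC2, IEC12 and IEC4 did not overlap each other, while IEC4 and AOC did. It rose from IEC2 to IEC4 (log2 fold change 2.38, SE 0.28, adjusted p = 0.0002; 2.06 without replicate C) and fell to IEC12 (log2 fold change -1.34, SE 0.28, adjusted p = 0.00444; -1.02 without replicate C). IEC12 was above IEC2 (log2 fold change 1.04, SE 0.28, adjusted p = 0.0139), a call that was lost without IEC2 replicate B, without IEC12 replicate A or with equal totals, and AOC was higher than IEC12 (log2 fold change 1.6, SE 0.27, adjusted p = 0.000344). LAMC1 (chromosome 9, 124283668 to 124405967), the gamma1 chain, moved less, from 7.39, 8.55 and 9.07 FPKM in IEC2 to 14, 18.1 and 28.2 in IEC4 and 9.15, 7.52 and 6.23 in IEC12, with 12.9, 16.4 and 13.3 in AOC. Its rise to IEC4 (log2 fold change 1.12, SE 0.24, adjusted p = 0.00574) and its fall to IEC12 (log2 fold change -1.25, SE 0.24, adjusted p = 0.00306) were called with all libraries, but the log2 fold changes were 0.86 and -0.98 without replicate C, inside the fold limit. Median-of-ratios scaling also ended the call of its rise.

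The shares of the alpha chains are given as a description, with no test. LAMA4 took 74.6 to 85.7% of the summed alpha chain FPKM in IEC2, 71.1 and 76.6% in IEC4 A and B, 54.9% in IEC4 C, 95.3 to 98.0% in IEC12 and 80.7 to 87.5% in AOC. LAMA5, the alpha5 chain, was at 0.181, 0.593 and 0.17 FPKM in IEC2, 3.01, 3.71 and 6.42 in IEC4, 0.072, 0.0654 and 0.122 in IEC12 and 1.0, 0.757 and 0.383 in AOC. It was above 1 FPKM in every IEC4 library and in no other IEC library, rose to IEC4 (log2 fold change 2.0, SE 0.24, adjusted p = 0.000228; 1.74 without replicate C) and fell to IEC12 (log2 fold change -2.26, SE 0.24, adjusted p = 0.000136; -2.0 without replicate C). LAMA1, a chain of early embryonic laminin, reached 1.39, 0.725 and 2.16 FPKM in IEC4 and 3.63, 4.02 and 3.02 in AOC but no more than 0.148 in IEC2 and IEC12. It was higher in AOC than in IEC12 (log2 fold change 2.12, SE 0.19, adjusted p = 2.13e-06). LAMB2 was at 0.192 to 0.717 FPKM in IEC12 and 0.891 to 2.13 in IEC4 and was not called in any comparison. LAMA3 and LAMB3, chains best known from epithelial laminin, were highest in IEC4 replicate C. LAMA3 was at 1.14, 1.29 and 17.6 FPKM in IEC4 and at most 0.47 in every other library. LAMB3 was at 0.0614, 0.112 and 2.25 FPKM in IEC4 and at most 0.0303 elsewhere. LAMA3 did not pass the call from IEC2 to IEC4 (log2 fold change 1.77, SE 0.68, adjusted p = 0.065), and fell from IEC4 to IEC12 (log2 fold change -2.04, SE 0.68, adjusted p = 0.034). That fall was -1.02 on the log2 scale without replicate C (adjusted p = 0.00188), and the call was lost without any 1 of the IEC12 libraries, with no filter or with only the groups compared fitted. LAMB4 and LAMC3 did not exceed 0.0388 FPKM anywhere.

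**Figure D4:**
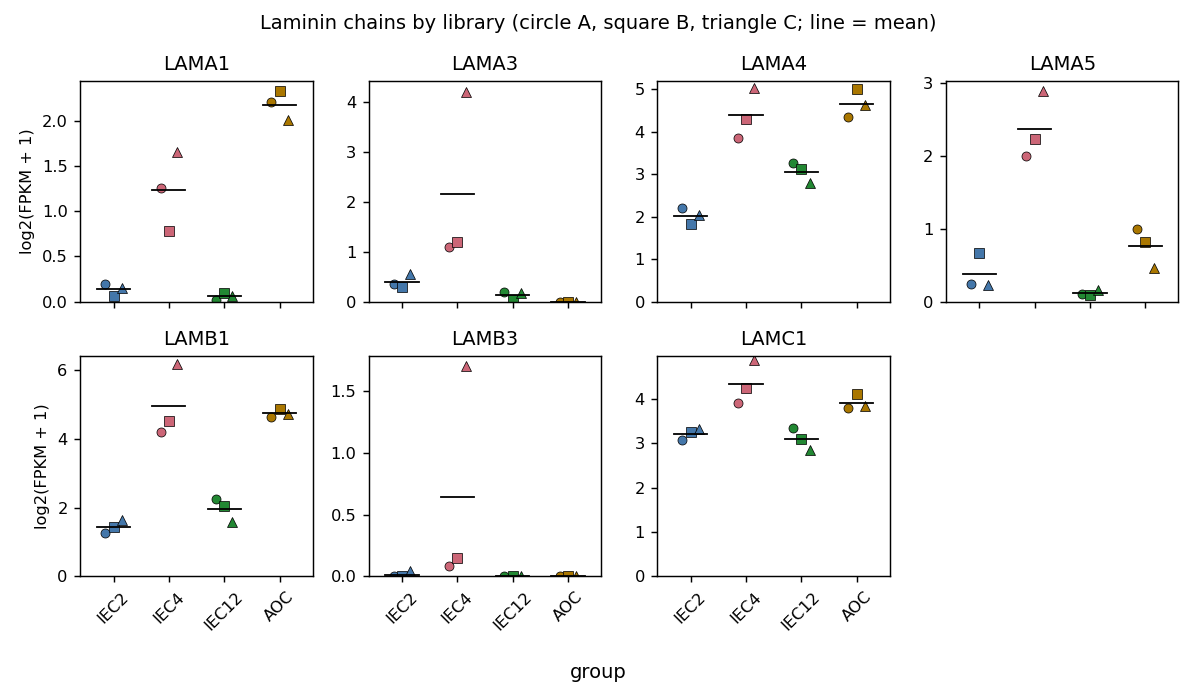
Levels of 7 laminin chain genes, as log2(FPKM + 1), in each library, with the group mean as a line and the replicates by shape (circle A, square B, triangle C); the vertical axes differ between panels and start at 0. The triangle of IEC4 is the highest IEC4 point of every panel, and for LAMA3 and LAMB3 it stands far above all other points.

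Of the basement membrane collagen genes, COL4A5 (chromosome X, 88958837 to 89183306), the alpha5(IV) chain, was at 0.8, 0.509 and 1.1 FPKM in IEC2, 2.73, 2.86 and 4.61 in IEC4 and 1.09, 0.592 and 0.571 in IEC12, and was listed at 0 in all 3 AOC libraries. IEC4 did not overlap the other stages. COL4A5 rose to IEC4 (log2 fold change 1.27, SE 0.23, adjusted p = 0.00204; 1.09 without replicate C) and fell to IEC12 (log2 fold change -1.32, SE 0.23, adjusted p = 0.00156; -1.13 without replicate C). COL4A2, the alpha2(IV) chain that pairs with alpha1(IV) in most vessels, showed another order. It was at 1.36, 1.4 and 1.01 FPKM in AOC, at no more than 0.26 in IEC2 and IEC12, and at 0.115, 0.181 and 1.79 in IEC4, high in replicate C only. AOC was above IEC12 (log2 fold change 1.1, SE 0.28, adjusted p = 0.00482). COL4A3 and COL4A4, which lie head to head on chromosome 15 and whose RefSeq annotations overlap, and COL4A6 did not exceed 0.258 FPKM.

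The nidogen genes differed in how far they moved and in where they were highest. NID2 (chromosome 1, 181699098 to 181773084), nidogen-2, was at 0.531, 0.816 and 0.214 FPKM in IEC2, 2.76, 3.57 and 9.9 in IEC4, 0.309, 0.287 and 0.311 in IEC12 and 23.5, 27.9 and 25.5 in AOC. AOC was above every IEC library, and IEC4 above every library of the other stages. NID2 rose to IEC4 (log2 fold change 1.93, SE 0.35, adjusted p = 0.0024; 1.47 without replicate C), fell to IEC12 (log2 fold change -2.14, SE 0.35, adjusted p = 0.00129; -1.67 without replicate C) and was 84.8-fold higher in AOC than in IEC12 (log2 fold change 4.35, SE 0.32, adjusted p = 3.58e-07). NID1 (chromosome 14, 55239327 to 55346948), nidogen-1, was at 8.81 ± 1.11 FPKM in IEC2, 17.7 ± 4.75 in IEC4, 15.2 ± 2.44 in IEC12 and 9.38 ± 0.761 in AOC (mean ± SD, n = 3). It was 2.01-fold higher in IEC4 than in IEC2 without overlap, inside the fold limit on the log2 scale (log2 fold change 0.91, SE 0.21, adjusted p = 0.00761; 0.94 without replicate C), and was called higher without IEC4 replicate A. IEC12 was also above IEC2 (log2 fold change 0.71, SE 0.21, adjusted p = 0.0196), and AOC below IEC12 (log2 fold change -0.63, SE 0.19, adjusted p = 0.0127), in each case without overlap and inside the fold limit. The difference between AOC and IEC12 had the opposite sign to that of NID2. Agrin (AGRN) reached 1.43, 1.67 and 1.79 FPKM in IEC4 and at most 0.720 elsewhere, and did not exceed the fold limit (log2 fold change 0.73, SE 0.18, adjusted p = 0.0101 from IEC2 to IEC4). Perlecan (HSPG2) was between 0.0434 and 1.88 FPKM, highest in IEC4 replicate C, and did not pass the filter on low values.

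Fibrillar collagen RNA was mainly COL3A1 in the induced cells and mainly COL1A2 and COL5A2 in AOC. COL3A1 (chromosome 15, 93556914 to 93595678), the single chain of type III collagen, was at 66, 107 and 108 FPKM in IEC2, 40.6, 52.9 and 43.2 in IEC4, 75.9, 77.5 and 58.9 in IEC12 and 6.37, 5.82 and 4.49 in AOC. IEC2 and IEC12 overlapped, IEC4 lay below both and AOC far below all. It took 68.2 to 76.7% of the summed collagen FPKM at day 2, 32.4 to 45.1% at day 4, 56.6 to 62.3% at day 12 and 7.17 to 9.96% in AOC. The decrease from IEC2 to IEC4 was just inside the fold limit (log2 fold change -0.996, SE 0.21, adjusted p = 0.00478; -0.96 without replicate C), and 5 of 18 alternatives called it: a pseudocount of 0.1, median-of-ratios scaling, equal totals, and leaving out IEC2 replicate A or IEC4 replicate B. The difference between IEC12 and AOC was called (log2 fold change -3.45, SE 0.2, adjusted p = 5.2e-08). COL5A2, the alpha2 chain of type V collagen, lies 16.2 kb from COL3A1 on chromosome 15. It was at 7.09, 10.5 and 11 FPKM in IEC2, 9.78, 15.7 and 14.2 in IEC4, 26.8, 20.6 and 15.7 in IEC12 and 8.09, 10.6 and 9.45 in AOC. IEC12 was above every library of IEC2 and AOC and just above IEC4. COL5A2 was higher in IEC12 than in IEC2 (log2 fold change 1.06, SE 0.25, adjusted p = 0.00712) and lower in AOC than in IEC12 (log2 fold change -1.06, SE 0.23, adjusted p = 0.00187). Both calls were lost without IEC12 replicate A, the first also without IEC2 replicate A or with equal totals, and the second also without AOC replicate A or with median-of-ratios scaling.

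The chains of type I collagen, which is built from alpha1 and alpha2 chains, did not follow each other. COL1A2 (chromosome 9, 74174484 to 74210407) was at 15.5, 13.2 and 13.1 FPKM in AOC and at 0.975, 0.269 and 0.319 in IEC12, with no more than 0.725 in IEC2 and IEC4. COL1A1 (chromosome 12, 26379087 to 26397180) was at 1.3, 0.666 and 0.473 FPKM in AOC, 0.273, 0.37 and 0.381 in IEC2, 4.73, 2.18 and 9.86 in IEC4 and 0.0448, 0.0363 and 0.0976 in IEC12. The highest group was thus AOC for the alpha2 chain and IEC4 for the alpha1 chain. COL1A2 was higher in AOC than in IEC12 (log2 fold change 3.32, SE 0.22, adjusted p = 1.45e-07). COL1A1 rose from IEC2 to IEC4 (log2 fold change 2.12, SE 0.36, adjusted p = 0.0016; 1.67 without replicate C) and fell to IEC12 (log2 fold change -2.46, SE 0.36, adjusted p = 0.000705; -2.01 without replicate C). COL11A1, a minor fibril chain best known from cartilage, was at 7.25, 7.42 and 7.8 FPKM in IEC2, 0.918, 1.58 and 3.66 in IEC4 and 1.08, 0.826 and 0.864 in IEC12, and was listed at 0 in AOC. It fell from IEC2 to IEC4 (log2 fold change -1.58, SE 0.29, adjusted p = 0.00234), without replicate C by 1.93 on the log2 scale, and was lower in IEC12 than in IEC2 (log2 fold change -2.14, SE 0.29, adjusted p = 0.000314). COL2A1, the main cartilage collagen, was seen at 2.09, 0.883 and 2.78 FPKM in IEC4 and at no more than 0.0587 in any other library, and did not pass the filter. COL5A1, the partner chain of COL5A2, did not exceed 0.643 FPKM. Of the other fibrillar genes, COL11A2 reached 0.371, 0.764 and 1.16 FPKM in IEC12, while COL24A1, COL27A1 and COL5A3 stayed under 1 FPKM.

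Among the other collagen genes, COL17A1 (chromosome 14, 114959404 to 115007734), a transmembrane collagen of epithelial hemidesmosomes, showed the largest IEC4 difference. It was at 0.0517, 0.0214 and 0.039 FPKM in IEC2, 6.28, 11.4 and 17.4 in IEC4, 0.18, 0.305 and 0.458 in IEC12 and 0.879, 0.804 and 0.652 in AOC. Every IEC4 library was at least 6 FPKM and every other library under 1. It rose to IEC4 (log2 fold change 3.51, SE 0.29, adjusted p = 2.84e-05) and fell to IEC12 (log2 fold change -3.18, SE 0.29, adjusted p = 6.75e-05). Without replicate C these log2 fold changes were 3.2 and -2.86. The summed epithelial markers, given above, were also highest in IEC4, though ESRP1 was lower in IEC4 A and B than in IEC2. The part of epithelial cells in the COL17A1 difference was not tested. COL8A1 (chromosome 13, 159216138 to 159374718), the alpha1 chain of type VIII collagen, which is a short-chain collagen of vessel walls and of Descemet's membrane, was at 5.76, 2.5 and 4.87 FPKM in IEC2, 8.87, 8.41 and 11.7 in IEC4, 15.8, 12.3 and 6.1 in IEC12 and 25.1, 24.3 and 29 in AOC. AOC did not overlap any stage, and IEC12 overlapped IEC4. It was higher in AOC than in IEC12 (log2 fold change 1.21, SE 0.31, adjusted p = 0.00523) and in IEC12 than in IEC2 (log2 fold change 1.17, SE 0.34, adjusted p = 0.0199). The first call was lost without IEC12 replicate C, and the second without IEC2 replicate B or IEC12 replicate A or B and with equal totals. The rise from IEC2 to IEC4 (log2 fold change 1.03, SE 0.34, adjusted p = 0.0391) was lost without IEC4 replicate C (log2 fold change 0.9, adjusted p = 0.114) and without IEC2 replicate B or C, IEC4 replicate A or B or IEC12 replicate B, as well as with median-of-ratios scaling, equal totals or no filter, so that 8 of 18 alternatives kept it. COL25A1 (chromosome 8, 112866597 to 113335765), a transmembrane collagen known from nerve and muscle, was at 4.23, 5.2 and 6.0 FPKM in IEC2, 13.5, 11.6 and 10.4 in IEC4, 8.41, 7.5 and 7.6 in IEC12 and 0, 0.0235 and 0.0816 in AOC. The stages did not overlap each other, and AOC was near 0. COL25A1 rose from IEC2 to IEC4 (log2 fold change 1.06, SE 0.17, adjusted p = 0.00114; 1.15 without replicate C), though not without IEC2 replicate A or IEC4 replicate A or with median-of-ratios scaling, and was lower in AOC than in IEC12 (log2 fold change -3.09, SE 0.15, adjusted p = 1.28e-08).

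COL12A1, which binds to the surface of fibrils, was at 1.88, 2.42 and 3.53 FPKM in IEC2, 2.61, 3.9 and 4.53 in IEC4, 0.525, 0.42 and 0.691 in IEC12 and 2.52, 2.33 and 1.6 in AOC. IEC12 was the lowest group and overlapped none of the others. COL12A1 fell from IEC4 to IEC12 (log2 fold change -1.58, SE 0.23, adjusted p = 0.000685; -1.45 without replicate C) and was lower in IEC12 than in IEC2 (log2 fold change -1.2, SE 0.23, adjusted p = 0.00244). AOC was above IEC12 (log2 fold change 1.02, SE 0.22, adjusted p = 0.00156), a call lost without AOC replicate A or B, without IEC12 replicate B or with equal totals. COL9A1, a cartilage collagen chain, was listed at 0 in AOC and in 2 of the 3 IEC2 libraries, and was at 1.88, 0.807 and 1.92 FPKM in IEC4 and 1.19, 1.2 and 1.94 in IEC12. It rose from IEC2 to IEC4 (log2 fold change 1.18, SE 0.24, adjusted p = 0.00395; 1.06 without replicate C). COL18A1, the source of endostatin, was at 1.25 to 1.89 FPKM in AOC and 0.341 to 0.93 in IEC12, a difference inside the fold limit (log2 fold change 0.68, SE 0.25, adjusted p = 0.0347). COL14A1, another fibril-associated collagen, reached 0.833 to 1.53 FPKM in IEC4 and at most 0.228 elsewhere, and was not tested. COL15A1 did not exceed 0.187 FPKM. The collagen VI genes found were listed at low values. COL6A1 was at 1.3, 1.07 and 0.464 FPKM in IEC2 and at most 0.306 elsewhere, COL6A5 and COL6A6 were near 0, and COL6A3 was listed at 0 in all 12 libraries. Values near 0 can be failed estimates, so these do not show that collagen VI was scarce. The other 8 collagen genes (COL8A2, COL10A1, COL13A1, COL16A1, COL21A1, COL22A1, COL23A1 and COL28A1) were under 1 FPKM in every library.

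The adhesive glycoprotein genes held the highest levels of the set. SPARC (chromosome 16, 71368164 to 71380972), a collagen-binding glycoprotein of remodelling tissue, was at 325, 331 and 417 FPKM in IEC2, 663, 646 and 1159.5 in IEC4, 53.6, 96 and 117 in IEC12 and 551, 589.9 and 316 in AOC. IEC12 was the lowest and IEC4 the highest group, neither overlapping another group, while AOC overlapped IEC2. SPARC fell from IEC4 to IEC12 (log2 fold change -3.21, SE 0.3, adjusted p = 7.29e-05; -2.94 without replicate C) and was lower in IEC12 than in IEC2 (log2 fold change -2.06, SE 0.3, adjusted p = 0.00055). Its rise from IEC2 to IEC4 (log2 fold change 1.16, SE 0.3, adjusted p = 0.0143) was 0.88 on the log2 scale without IEC4 replicate C and then inside the fold limit, as it was with median-of-ratios scaling. Without IEC2 replicate A the rise stayed beyond the fold limit but the adjusted p in limma was 0.0502, and the call was lost. AOC was above IEC12 (log2 fold change 2.46, SE 0.32, adjusted p = 4.08e-05). Thrombospondin-1 is an adhesive protein that inhibits angiogenesis and activates latent TGF-beta. Its gene THBS1 (chromosome 1, 131728781 to 131746098) was at 1.31, 0.505 and 0.745 FPKM in IEC2, 7.45, 6.67 and 70.1 in IEC4, 0.127, 0.118 and 0.194 in IEC12 and 229, 268 and 319.8 in AOC. No 2 groups overlapped, and IEC4 replicate C was at 9.94 times the mean of A and B. THBS1 rose to IEC4 (log2 fold change 3.19, SE 0.7, adjusted p = 0.00615), or 2.14 without replicate C, and fell to IEC12 (log2 fold change -3.86, SE 0.7, adjusted p = 0.00208), or -2.81 without it. Of the 35 genes tested it differed most between AOC and IEC12 (log2 fold change 7.88, SE 0.64, adjusted p = 8.11e-07).

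SPP1 (chromosome 8, 131077786 to 131085334), osteopontin, an integrin ligand, was at 2.79, 3.19 and 3.62 FPKM in IEC2, 8.37, 8.45 and 133 in IEC4, 3.17, 4.17 and 2.49 in IEC12 and 199.99, 153 and 287 in AOC. IEC4 A and B were close together, and C alone came near the AOC level. The rise to IEC4 had a log2 fold change of 2.45 with all libraries and 1.17 without replicate C, called in either case (adjusted p = 0.0446 and 0.00432). The fall to IEC12 was -2.43 with all libraries and -1.16 without replicate C, and AOC was higher than IEC12 (log2 fold change 5.62, SE 0.78, adjusted p = 6.86e-05). With replicate C kept, the rise was lost without any 1 IEC2 library or IEC12 replicate B, and the fall without any 1 library of IEC2 or IEC12, and both with no filter or with only the groups compared fitted. Fibronectin (FN1, chromosome 15, 117658158 to 117737145), which carries the integrin-binding RGD motif and assembles into fibrils, was at 6.73, 6.64 and 7.24 FPKM in IEC2, 13.1, 10.4 and 116 in IEC4, 6.55, 5.93 and 4.3 in IEC12 and 44.4, 47.1 and 37.4 in AOC. The IEC4 libraries were all above IEC2 and IEC12, but replicate C was far above A and B. FN1 did not pass the call from IEC2 to IEC4 (log2 fold change 1.76, SE 0.71, adjusted p = 0.0771); without replicate C the log2 fold change was 0.69 (adjusted p = 0.0315). The fall from IEC4 to IEC12 (log2 fold change -2.03, SE 0.71, adjusted p = 0.0409) became -0.96 without it, inside the fold limit, and was lost without any 1 library of IEC2 or IEC12, with no filter or with only the groups compared fitted. FN1 was higher in AOC than in IEC12 (log2 fold change 2.75, SE 0.65, adjusted p = 0.00317 in limma). That fold change did not use IEC4, but its SE and adjusted p did, through the spread shared by all groups. Without IEC4 replicate C the adjusted p in limma was 1.64e-07. Tenascin-C (TNC), a matricellular protein of developing and injured tissue, was at 10.3, 14 and 10.2 FPKM in AOC and 0.941, 0.846 and 0.551 in IEC12. It was higher in AOC (log2 fold change 2.81, SE 0.32, adjusted p = 1.47e-05), and IEC4 replicate C, at 3.99 FPKM, was the highest of the IEC libraries.

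Vitronectin (VTN), a plasma and matrix adhesion protein, had another order. It was listed at 0 in AOC and in IEC2 A and B, with 0.0515 FPKM in IEC2 C, at 0.0671, 0.498 and 0.379 in IEC4 and at 1.24, 1.26 and 1.4 in IEC12. It was the only adhesive glycoprotein gene called higher in IEC12 than in IEC2 (log2 fold change 1.18, SE 0.17, adjusted p = 0.000455) and the only one called lower in AOC than in IEC12, with a level close to the filter of 1 FPKM. THBS2 was listed at 0 in AOC and was at 0.639, 0.866 and 1.06 FPKM in IEC12, and POSTN, periostin, lay between 0.139 and 1.26 FPKM; neither passed the filter.

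**Figure D5:**
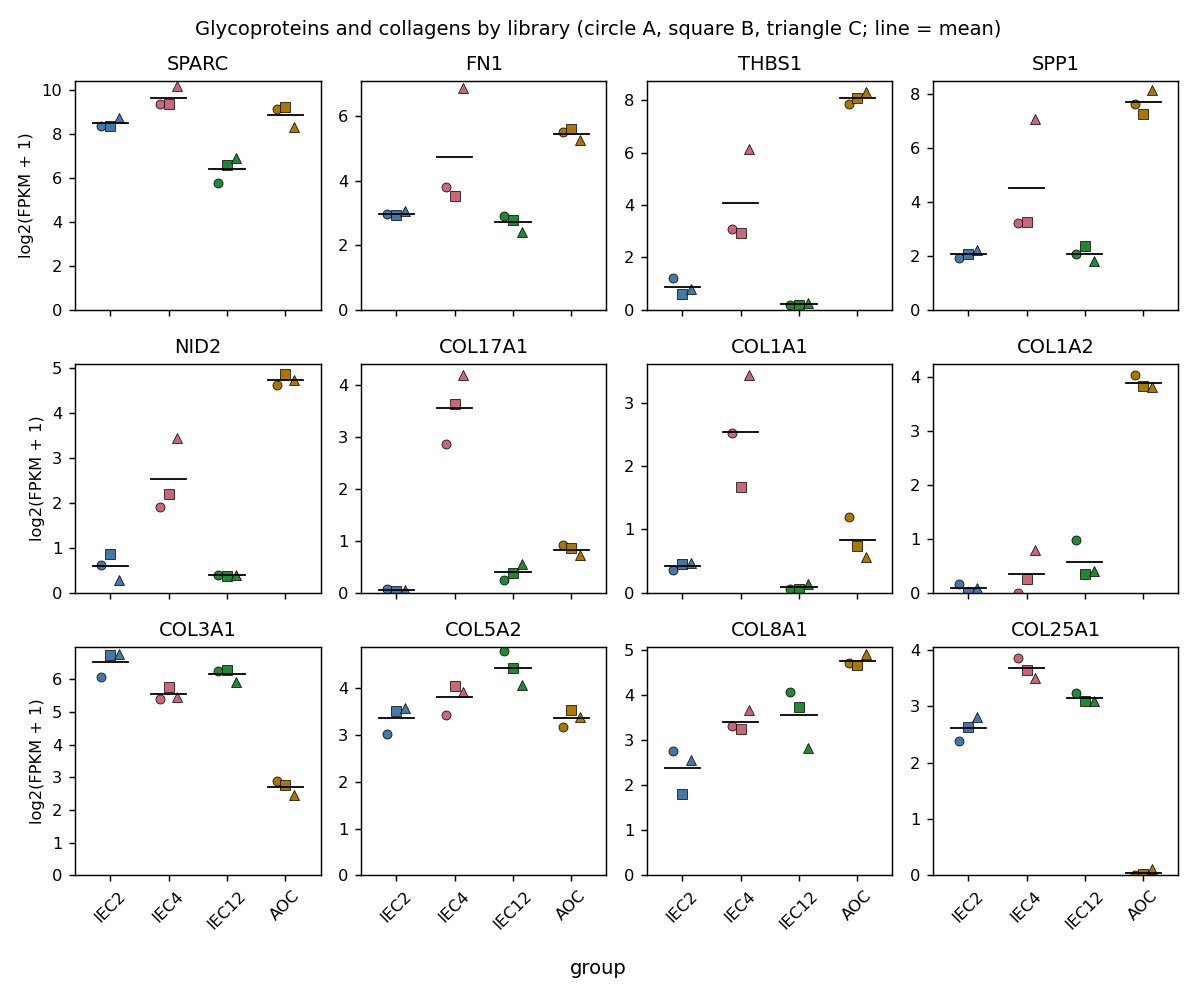
Levels of 12 glycoprotein and collagen genes, as log2(FPKM + 1), in each library, with the group mean as a line and the replicates by shape (circle A, square B, triangle C); the vertical axes differ between panels and start at 0. FN1, THBS1 and SPP1 show IEC4 replicate C far above replicates A and B, while COL1A2, NID2 and THBS1 are highest in AOC and COL25A1 is near 0 there.

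Of the elastic fibre genes, FBN2 was highest at day 12, while FBN1 and FBLN1 had their highest mean at day 4. FBN2 (chromosome 2, 131150665 to 131370241), fibrillin-2, the fibrillin most typical of embryonic tissue, was at 6.68, 5.76 and 7.09 FPKM in IEC2, 9.5, 9.25 and 11.6 in IEC4, 22.8, 17.5 and 14.1 in IEC12 and 0.0101, 0 and 0.00488 in AOC. The stages were ordered IEC2, IEC4 and IEC12 without overlap. FBN2 was higher in IEC12 than in IEC2 (log2 fold change 1.33, SE 0.19, adjusted p = 0.000494), and the steps between neighbouring stages were inside the fold limit (0.56 and 0.77). It was lower in AOC than in IEC12 (log2 fold change -4.23, SE 0.18, adjusted p = 2.76e-09). FBN1, fibrillin-1, by contrast lay between 1.82 and 3.70 FPKM in all 12 libraries, with means of 2.44 ± 0.571 in IEC2, 3.12 ± 0.418 in IEC4, 3.09 ± 0.217 in IEC12 and 2.96 ± 0.664 in AOC (mean ± SD, n = 3). Its difference between AOC and IEC12 was small (log2 fold change -0.06, SE 0.18, adjusted p = 0.805), and the groups overlapped. FBLN1, fibulin-1, was at 1.13, 1.67 and 1.6 FPKM in IEC2, 1.83, 3.38 and 3.37 in IEC4, 1.42, 2.05 and 1.78 in IEC12 and 1.01, 1.26 and 0.64 in AOC. IEC4 lay above IEC2 without overlap, but the difference was inside the fold limit (log2 fold change 0.62, SE 0.22, adjusted p = 0.0484), and was 0.52 without replicate C (adjusted p = 0.129). It was called in no comparison.

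Of the proteoglycan genes, VCAN, versican, a large hyaluronan-binding proteoglycan, was at 4.11, 4.52 and 4.15 FPKM in IEC2, 6.02, 5.92 and 7.48 in IEC4, 8.04, 6.28 and 5.24 in IEC12 and 2.98, 2.91 and 3.61 in AOC. AOC was below every stage, but no comparison passed the call (AOC against IEC12: log2 fold change -0.84, SE 0.17, adjusted p = 0.00098). DCN, decorin, a small leucine-rich proteoglycan that binds fibrils, was at 13.5, 2.46 and 2.73 FPKM in IEC2, 0.666, 0.221 and 3.73 in IEC4, 2.15, 1.13 and 1.52 in IEC12 and 0.0858, 0.168 and 0.0277 in AOC. IEC2 replicate A and IEC4 replicate C were each the highest of their group, and DCN was not called from IEC2 to IEC4 (log2 fold change -1.43, SE 0.6, adjusted p = 0.0899). Without IEC4 replicate C it was lower in IEC4 (log2 fold change -2.0, adjusted p = 0.027). In AOC against IEC12, DCN was not called with all libraries (log2 fold change -1.23, SE 0.55, adjusted p = 0.0728 in limma). It was called lower in AOC only when IEC4 replicate C was left out or in some other alternatives (adjusted p = 0.0368 in limma without replicate C). BGN, biglycan, a relative of decorin, was at 1.83, 2.03 and 1.08 FPKM in AOC and at no more than 0.00486 in IEC12, and was higher in AOC (log2 fold change 1.38, SE 0.17, adjusted p = 2.16e-05). LUM, lumican, next to DCN on chromosome 5, did not exceed 0.448 FPKM.

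Collagen chains are hydroxylated, folded, trimmed and cross-linked by a shared set of enzymes and chaperones, of which 32 of 34 listed genes were found. From IEC2 to IEC4, 4 of 25 tested were higher (LOXL2, LOXL4, P3H1 and SERPINH1), where 13.5% of all genes were, and 1 was lower (P4HA1), where 4.8% were, so that both counts were near the shares over all genes. Their median log2 difference was 0.02. When replicate C of IEC4 was left out and the genes tested were kept as before, 3 were higher (LOXL4, P3H1 and TLL1) and 3 lower (LOX, P4HA1 and P4HA3). Over all 10542 genes, 1344 were then higher and 581 lower. From IEC4 to IEC12, 8 were lower (ADAMTS3, FKBP10, LOXL2, LOXL4, P3H1, PCOLCE, PLOD3 and SERPINH1) and PPIB was higher, with a median of -0.54, where 16.4% of all genes were lower and 6.25% higher. Without replicate C these counts were the same, where 1582 of all 10542 genes were lower and 737 higher. P3H1, a prolyl 3-hydroxylase, was at 51.5, 39.5 and 81.3 FPKM in IEC2, 143, 142 and 159.9 in IEC4 and 9.94, 15.9 and 24.4 in IEC12, and IEC4 did not overlap the other stages. It rose (log2 fold change 1.42, SE 0.31, adjusted p = 0.00665; 1.36 without replicate C) and then fell (log2 fold change -3.16, SE 0.31, adjusted p = 9.74e-05; -3.1 without replicate C). SERPINH1, the collagen chaperone HSP47, was at 4.67, 7.8 and 14.8 FPKM, 26.9, 30.6 and 29.3 and 0.577, 3.17 and 6.84 in the same stages. It fell from IEC4 to IEC12 (log2 fold change -3.01, SE 0.53, adjusted p = 0.00178; -3.0 without replicate C), and rose from IEC2 to IEC4 (log2 fold change 1.69, SE 0.53, adjusted p = 0.0311). The rise was 1.68 without replicate C (adjusted p = 0.0739), and its call was lost without any 1 IEC4 library, without IEC2 replicate A or B, with no filter or with a pseudocount of 0.1. LOXL2, a lysyl oxidase relative, had a rise of 1.39 on the log2 scale with all libraries and 1.04 without replicate C (adjusted p = 0.0742), and that call was also lost without IEC2 replicate A or B or with no filter. P4HA1, a subunit of prolyl 4-hydroxylase, was highest in IEC2 (109, 73.9 and 106 FPKM) and fell to 30.3, 43.7 and 34.6 in IEC4 (log2 fold change -1.38, SE 0.18, adjusted p = 0.000401; -1.36 without replicate C). In IEC12 against IEC2, 10 of the 25 were lower, where 10.3% of all genes were, and 1 higher, where 11.1% were. In AOC against IEC12, 6 of 26 were higher (LOX, LOXL2, P3H2, P4HA3, PPIB and TLL1) and 6 lower (ADAMTS3, P3H4, P4HA1, PCOLCE, PCOLCE2 and PLOD2), where 13.9% and 18.6% of all genes were. LOX, lysyl oxidase, which cross-links collagen and elastin, was at 105, 127 and 104 FPKM in AOC and 12.2, 11.3 and 10.5 in IEC12 (log2 fold change 3.19, SE 0.35, adjusted p = 1.08e-05). PCOLCE2, an enhancer of procollagen trimming, was listed at 0 in AOC and was at 8.22, 9.14 and 6.65 FPKM in IEC12.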

How the data were processed

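RNA of 12 libraries (AOC, IEC2, IEC4 and IEC12, with 3 biological replicates each, grouped by their titles) was converted with Smart-Seq2 to amplified cDNA and sequenced on an Illumina instrument. Reads were processed by the authors on the Galaxy platform, and the deposited tables give FPKM, 1 value for each gene in each library. The submitters' processing notes name Bowtie2 2.2.3, TopHat2 2.0.12, Cufflinks 2.2.1 and the build susScr11, with no role or order. The gene annotation, the strand setting and any scaling across libraries are not given in the sources used here. The FPKM were not scaled again.

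Genes were tested with limma 3.58.1 (R 4.3.3) on log2(FPKM + 1), where the pseudocount of 1 understates the changes of low genes. Genes that reached 1 FPKM in 3 or more of the fitted libraries were kept, the variance was tied to mean expression (trend = TRUE), and p-values were adjusted over all genes tested. Stages were compared in a fit of the 9 IEC libraries, AOC and IEC12 in a fit of all 12. The labels do not say how the biological replicates were made, so p-values measure the spread between these libraries. Calls needed an adjusted p under 0.05 and a log2 fold change beyond 1 in either direction; the study's own limits (p and q under 0.001, log2 fold change above 3) were an alternative. In tests on simulated data of 10542 genes, made for IEC4 against IEC2, 165 of 200 genes shifted by 1.5 and 196 of 200 shifted by 3 log2 units were called, with 5 other genes called each time. The shifted genes were drawn only from those above a limit of mean level and below a limit of spread. The shares recovered therefore do not cover genes at lower levels, as several matrix genes were.

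Every gene of the set may be named. Values in each library are given for the 3 highest genes of each role and the 3 largest called, non-overlapping differences in each direction and comparison, as well as for others chosen after their values were seen. The set, the roles, the collagen processing list and the marker lists were chosen with earlier results of these data known, and no p is given for a list. Names came from a table of gene names, and coordinates from RefSeq on Sscrofa11.1, which held 65 of the 66 genes. Same-lettered libraries did not deviate together in every pair (r across genes from -0.56 to 0.26), so letters were not used as pairs. Tables were made with Python 3.11.15, NumPy 2.4.6 and pandas 2.3.3, and plots with matplotlib 3.10.9. No sequences are shown, and 1 gene of the set is not reported here.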

Additional observations from a re-analysis of the deposited data

How the results depend on the processing

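No log2 fold change of a called matrix gene changed sign under any alternative run in which the gene was tested, and 973 stayed called and 69 fell short. Runs in which a called gene no longer passed the filter entered neither number. This was so for COL1A1, COL17A1, LAMA5 and NID2 in the stage comparisons when an IEC4 library was left out and the filter applied again. Counts are given as higher and lower. With the limits of the study, 2 and 0 genes were called in IEC4 against IEC2, 0 and 3 in IEC12 against IEC4, 0 and 0 in IEC12 against IEC2, and 4 and 3 in AOC against IEC12. Over all genes these were 104 and 20, 15 and 84, and 64 and 65 of 10542, and 235 and 252 of 11053. For the other settings of this section counts over all genes are not given here, so whether matrix genes exceeded them is not shown. With no fold limit, IEC4 against IEC2 had 18 and 2 called, IEC12 against IEC4 had 3 and 16, IEC12 against IEC2 had 9 and 3, and AOC against IEC12 had 17 and 11. With a pseudocount of 0.1 these were 17 and 2, 1 and 15, 7 and 4, and 18 and 11, the 1 being VTN. In IEC4 against IEC2, 2 genes were lower with median-of-ratios scaling, with equal totals and with IEC4 replicate C left out of otherwise the same genes (chosen after seeing the data), against 10, 13 and 11 higher. In IEC12 against IEC2, equal totals gave 3 higher. The replicate block gave 15 and 1, 0 and 14, 6 and 3, and 14 and 6.

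Leaving out each replicate in turn gave 7 to 14 higher and 1 to 2 lower genes in IEC4 against IEC2, 0 higher and 7 to 12 lower in IEC12 against IEC4, 2 to 6 higher and 3 lower in IEC12 against IEC2, and 11 to 14 higher and 4 to 7 lower in AOC against IEC12. The lowest counts came without IEC4 replicate C (7 and 7) and without IEC12 replicate A (2). Without an IEC4 library, genes above 1 FPKM in that stage only no longer passed the filter of 3 libraries. The depth of single values is unknown, and values near 0 can be failed estimates. Scaling moved the median of all genes in IEC12 against IEC4 from -0.15 to 0.05 (median of ratios) or -0.32 (equal totals).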
